A study of Mus musculus with 3 samples.

Results

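Lyz1, Defa24, Defa30, Mmp7, Itln1 and Ang4 are 6 genes of the antimicrobial program of Paneth cells. They were chosen by their symbols and are 6 of the 31053 genes counted in the dataset. Single-cell RNA was measured in intestinal epithelial cells, and the immune cells isolated with them, of wild-type C57BL/6N mice, all male and 12 weeks old. Cells of 3 mice were pooled, sorted for exclusion of propidium iodide (a dye that enters dead cells), and made into 1 library each from duodenum, jejunum and ileum. The data belong to a study of a genetic tool aimed at mature enteroendocrine cells (EECs), and the question asked here is in which cells, and in which segment, the 6 transcripts were found. With 1 library per segment, and the same pooled mice behind each of them, a difference between segments has no replicate and was not tested.

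Paneth cells sit at the base of the crypts of the small intestine, between the stem cells, and release granules filled with antimicrobial proteins into the crypt lumen. Lysozyme, encoded by Lyz1, cuts the peptidoglycan of bacterial cell walls. Alpha-defensins (Defa24, Defa30), called cryptdins in the mouse, are short cationic peptides that damage microbial membranes and are made as precursors, which the metalloprotease matrilysin (Mmp7) cuts into the active form. Intelectin 1 (Itln1) is a secreted lectin that binds microbial sugars, and angiogenin 4 (Ang4) is a secreted ribonuclease with microbicidal activity. Paneth and goblet cells are both secretory cells that arise from crypt progenitors through the transcription factor Atoh1.

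In GRCm38 coordinates the genes lie on 5 chromosomes. Lyz1 (ENSMUSG00000069515) is on chromosome 10 from 117287797 to 117292868 on the minus strand. Defa24 (ENSMUSG00000064213) and Defa30 (ENSMUSG00000074444) lie in the alpha-defensin cluster of chromosome 8, from 21734494 to 21735471 and from 21134642 to 21135598, both on the plus strand. Mmp7 (ENSMUSG00000018623) is on chromosome 9 from 7692090 to 7699585 on the plus strand, Itln1 (ENSMUSG00000038209) on chromosome 1 from 171518122 to 171535294 on the minus strand, and Ang4 (ENSMUSG00000060615) on chromosome 14 from 51763878 to 51773590 on the minus strand.

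The alpha-defensins are close copies of each other, which limits how surely a read can be given to 1 of them. In the GENCODE M21 transcripts the coding sequences of Defa24 and Defa30, of 282 bases each, differed at 4 positions (98.6% identity). A stretch of both is shown because the goblet cell results rest on telling these genes apart. The stretch of 30 coding bases with most differences, from base 145 to base 174 of both coding sequences, held 2 of them, marked in capitals.
Defa24: ccagaaggcGcttctcttcaagaggaatcA
Defa30: ccagaaggcTcttctcttcaagaggaatcG

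Over the last 400 bases of each transcript, the end that the 3′ chemistry reads, no stretch of 90 bases of Defa24, Mmp7, Itln1 or Ang4 occurred in a transcript of another gene. For Defa30, 14 of 309 such stretches were shared, with Defa17, Defa3, Defa23 or Defa31, and for Lyz1 15 of 311 were shared with its close copy Lyz2, the lysozyme of macrophages. The counts of the alpha-defensins and of Lyz1 are therefore given as assigned by the authors' counting, and a share of misassigned UMIs between near-identical genes cannot be told from these files.

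Promoter windows from RefSeq (GRCm38.p6, 250 bases before to 50 after the start) were given for 5 of the 6 genes. The core CTTTGA, read as TCAAAG on the other strand, is the shared part of sites bound by TCF/LEF factors of the Wnt pathway, and it occurred in 16% of all 32851 windows. It was present in the windows of Defa30 and Mmp7, and in those of 13 of 16 alpha-defensin genes with a window. It was not found in the windows of Lyz1, Itln1 and Ang4. The matches of Defa30 and Mmp7, with a match of Defa21, another alpha-defensin of Paneth cells, are shown with the core in capitals. They lie at chr8:21134497-21134526, chr9:7692083-7692112 and chr8:21025462-21025491, all on the plus strand. Counted from the start, the core lies at -141 for Defa30 and -71 for Defa21, which has another match at -111. The core of Mmp7 lies at 6, after the start of the window shown, and at -246 in a window of another start.
Defa30: gacaaaggaacaTCAAAGggaactggaggg
Mmp7: tgtcaggaaacaTCAAAGtagctctgagaa
Defa21: tcccagttcccaTCAAAGagtgccttctct
A match of these letters is a description of the sequence and not evidence of binding.

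The libraries held 8139 to 9595 barcodes and 78074516 to 98518847 unique molecular identifiers (UMIs, each standing for 1 captured RNA molecule). After the study's filters, 16686 cells remained, 4255 from duodenum, 4360 from jejunum and 8071 from ileum. The libraries differed in quality. Mitochondrial UMIs made up a median of 27.1% in duodenal, 27.2% in jejunal and 11.1% in ileal cells, and the median UMI count was 12424, 11737 and 5536. Between 20 and 28 barcodes were shared by any pair of libraries, of which at most 12 passed the filters in both. The doublet caller Scrublet marked 146 cells (1.81%) in ileum and 0 in the other libraries. Whether those libraries truly lack doublets was not tested, and doublets were left in.

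The Paneth class held 21 cells, 0.126% of all cells, with 4 from duodenum, 6 from jejunum and 11 from ileum. The cells were found by clustering without the 6 genes, so that their levels did not place them. With the 6 genes among the variable genes the class held 24 cells, with 7 from duodenum, 6 from jejunum and 11 from ileum. The class was named from 13 other Paneth markers, so their level in it follows in part from that choice and is a description. Of these 13 markers, 13 were detected in the class, at 2161 UMIs per 10000 summed, against 3.04 in T cells and 12.6 in goblet cells. Its leading genes were Gm14851, Defa21, Defa22 and AY761184, all alpha-defensins or related genes. The 8 goblet markers reached 274 per 10000 in it (554 in duodenum, 128 in jejunum and 223 in ileum) against 3874 in goblet cells, and their part in the levels below was not tested. Of these markers Spink4, a secreted peptide of goblet and Paneth cells, alone stood at 214 per 10000 in the class. The markers of B cells were at 0 in it (7 of 7), and those of T cells came to 0.140 per 10000, with Cd3d, Cd3e, Cd3g, Cd8a, Gzmb, Trac and Trdc at 0.

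A level is a gene's UMIs over all UMIs of a group of cells, times 10000. Ranges in parentheses are 95% Poisson limits (exact), which hold for counting error alone. The cells of a library share their source, so these intervals say nothing of the spread between mice. Transcripts were counted once each at their 3′ end, so the values are not divided by gene length.

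Together the 6 genes made up 41.5% of all UMIs of the Paneth class, 30.9% in duodenum, 57.8% in jejunum and 39.5% in ileum. Defa24 was the most abundant of all 31053 genes in the class and Defa30 the next, Lyz1 ranked at place 3, Itln1 at 8, Ang4 at 17 and Mmp7 at 23. The enzyme that processes the defensins was thus detected at a far lower level than its substrates, with 1100 UMIs of Mmp7 beside 83026 of Defa24.

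Lyz1 stood at 422 (408 to 437) UMIs per 10000 in the Paneth cells of duodenum, at 710 (691 to 730) in jejunum and at 622 (611 to 633) in ileum. Defa24 stood at 1754 (1724 to 1784) in duodenum, 3052 (3012 to 3092) in jejunum and 2279 (2259 to 2300) in ileum. Defa30 stood at 618 (600 to 635) in duodenum, 1527 (1499 to 1555) in jejunum and 545 (535 to 555) in ileum. These orders rest on few cells. In jejunum 2 of the 6 cells, with 38042 and 30815 UMIs, held most of the 73941 UMIs, and in duodenum 1 of the 4 cells, with 47404 UMIs, held most of the 76248. Without that duodenal cell, an alternative chosen after seeing the data, Lyz1 stood at 473 in duodenum, Defa24 at 3157 and Defa30 at 1361, and Defa24 was then above its jejunal level. When barcodes were chosen instead by at least 5% of their UMIs from other Paneth markers, with no other filter, all 3 genes were higher in duodenum than in jejunum, at 677 against 460 for Lyz1, 3012 against 2442 for Defa24 and 1159 against 1077 for Defa30. This order also rests on few barcodes, as 1 duodenal barcode held 119265 of the 151545 UMIs. The jejunal set held a barcode of 47388 UMIs, 66.6% of them mitochondrial, and 1 of 11146 UMIs with none of the 6 genes.

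Mmp7 stood at 35.9 (31.8 to 40.5) in duodenum, 21.4 (18.2 to 24.97) in jejunum and 32.3 (29.9 to 34.9) in ileum. Itln1 stood at 245 (234 to 257) in duodenum, 375 (361 to 389) in jejunum and 389 (380 to 397) in ileum. Ang4 stood at 18.5 (15.6 to 21.8) in duodenum, 93.3 (86.5 to 101) in jejunum and 86.7 (82.7 to 90.8) in ileum. The duodenal cell with 47404 UMIs held 19 of Ang4, and without it Ang4 stood at 42.3 (35.1 to 50.5) in duodenum. By marker share among all barcodes the order of Ang4 was another, with 105 in duodenum, 58.2 in jejunum and 84.9 in ileum. In that duodenal set 1 barcode held 1467 of the 1586 UMIs of Ang4.

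Single cells spread more widely than the segments did. Over the 21 cells, the lowest, median and highest level of Defa24 were 255, 2170 and 3508 per 10000, and those of Defa30 were 2.76, 469 and 1762. For Lyz1 they were 18.0, 505 and 1707, for Itln1 43.8, 369 and 1375, for Ang4 0.551, 50.6 and 164, and for Mmp7 0, 19.0 and 88.4. At least 1 UMI of Lyz1, Defa24, Defa30, Itln1 and Ang4 was found in 21 of 21 cells, and of Mmp7 in 20 of 21. Thinned to 800 UMIs per cell, Mmp7 was still found in 76.2% of cells (exact binomial interval 52.8 to 91.8), Itln1 and Ang4 in 95.2%, and the other 3 in 100%. The same thinning gave 0.488% for Mmp7 and 18.0% for Defa24 in T cells. The ranges of the cells of the 3 segments overlapped for each of the 6 genes, as the plot of single Paneth cells shows.

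**Figure D1:**
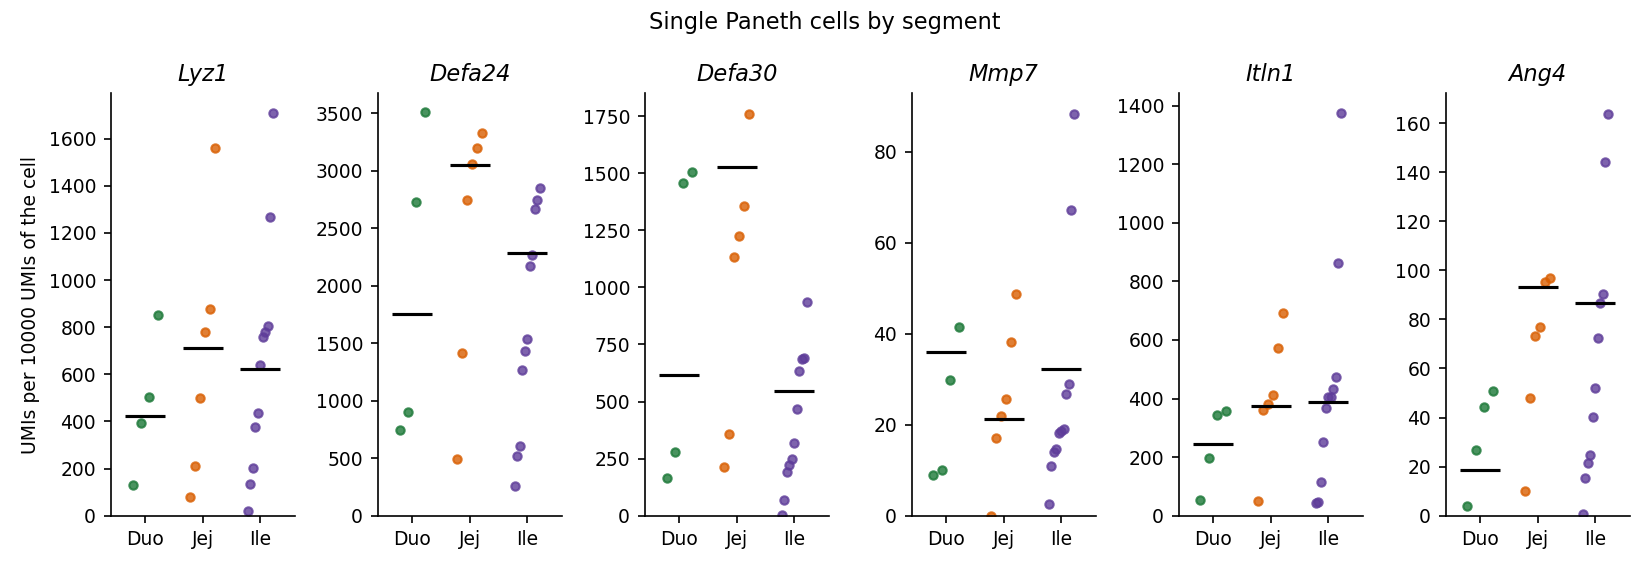
Level of each gene in the 21 Paneth cells, in UMIs per 10000 UMIs of the cell, for duodenum (Duo, 4 cells), jejunum (Jej, 6 cells) and ileum (Ile, 11 cells). Points are cells, bars are the summed cells of a segment, and each panel has its own axis from 0; the points of the segments overlap in every panel.

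The share of the 6 genes in a cell ranged from 4.05% to 61.7% of its UMIs, with a median of 41.5%. One ileal cell with 36297 UMIs held 8241 of Defa24 but 10 of Defa30 and 2 of Ang4, together with 321 of Mmp7, the highest count of Mmp7 in the class, and 2798 of Spink4, a secreted peptide of goblet and Paneth cells. In the class as a whole there were 3.05 UMIs of Defa24 for each of Defa30. The next lowest Defa30 level lay at 69.6 per 10000, in an ileal cell with 3879 UMIs.

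Outside the Paneth class each of the 6 transcripts was found in every named class with over 100 cells. Free RNA from broken cells enters all droplets of a library, and T cells, in which these genes should be silent, were taken as the measure of it. In T cells Defa24 stood at 0.159 (0.0328 to 0.464) per 10000 in duodenum, 1.23 (0.962 to 1.54) in jejunum and 2.92 (2.78 to 3.07) in ileum. Lyz1 stood there at 0.106 (0.0128 to 0.383), 0.364 (0.228 to 0.552) and 1.08 (0.991 to 1.17). The duodenal T cells numbered 35 and held 10 UMIs of the 6 genes, so that Mmp7 and Ang4 with 0 UMIs allow up to 0.159 per 10000, the level of 3 counts. In ileum, where T cells were most numerous (1086), the Paneth level was 577 times that of T cells for Lyz1, 780 times for Defa24, 585 times for Defa30, 541 times for Mmp7, 727 times for Itln1 and 813 times for Ang4.

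**Figure D2:**
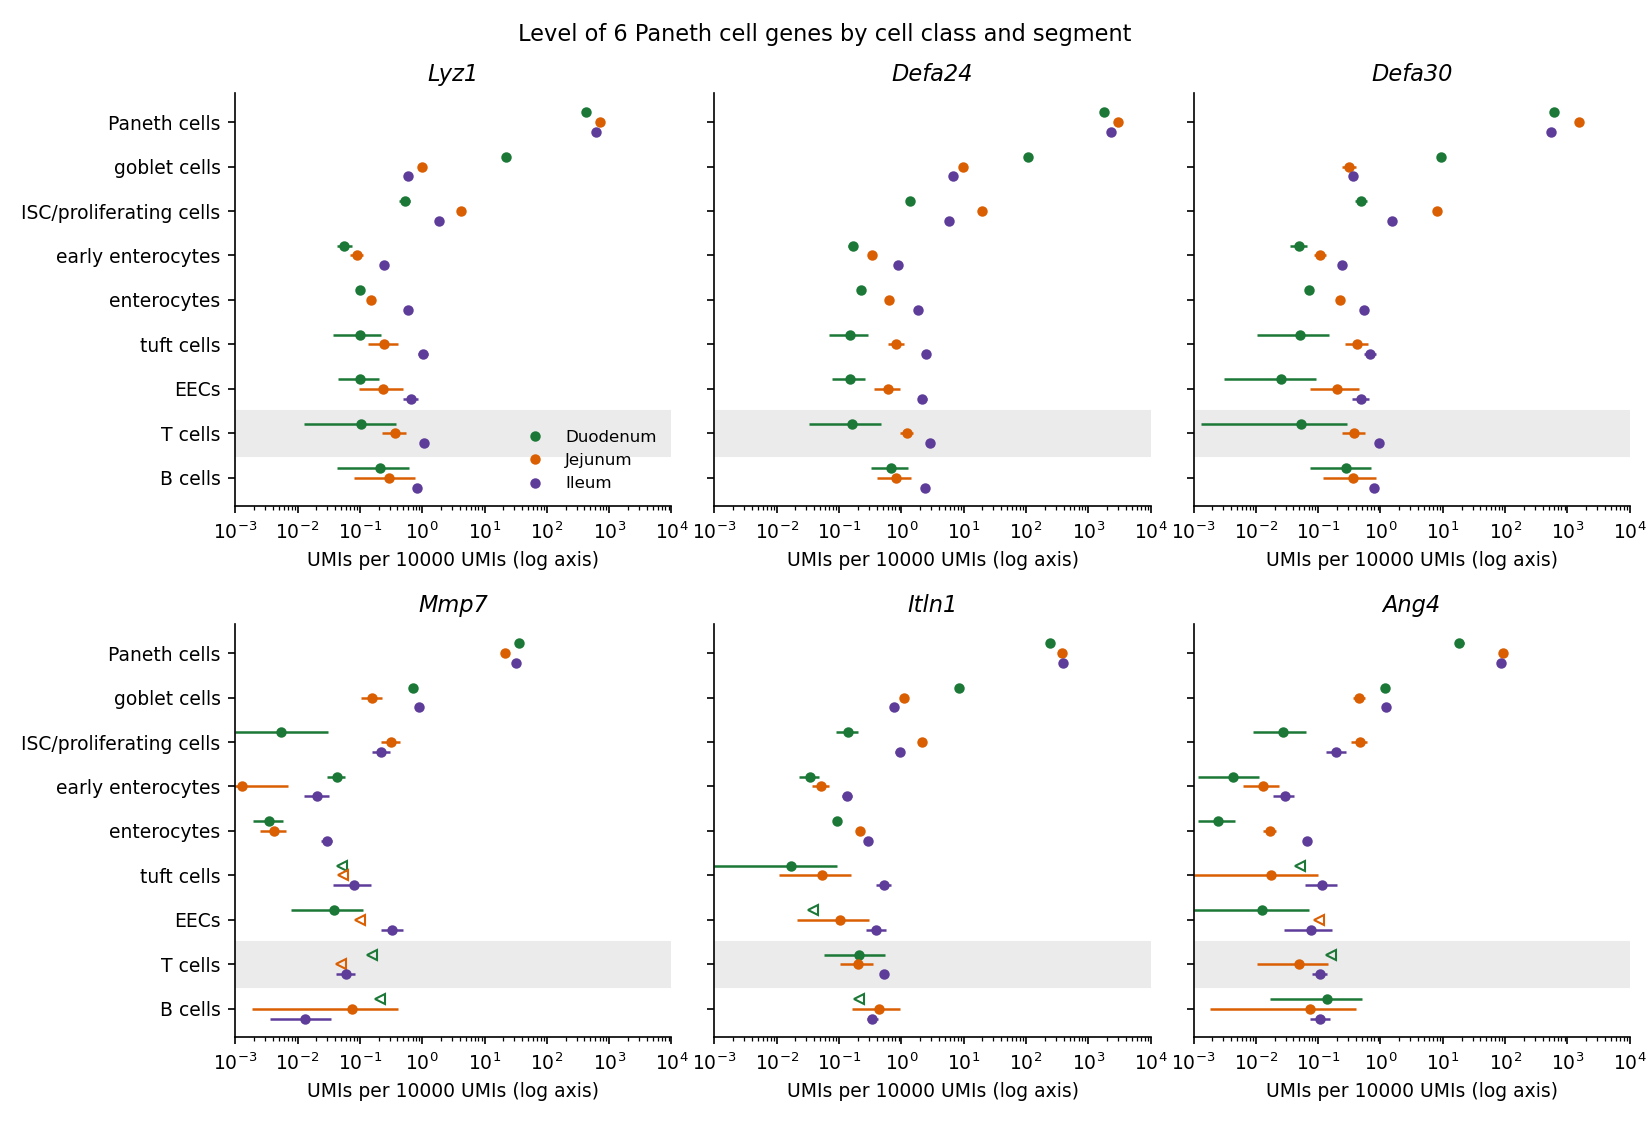
UMIs per 10000 UMIs (log axis) of each gene in 9 cell classes, by segment, with exact 95% Poisson intervals as lines; open triangles mark classes with 0 UMIs at the level of 3 counts, and the grey band marks T cells. Paneth cells lie 2 or more powers of 10 above T cells in each panel, and in T cells, enterocytes and tuft cells ileum lies above duodenum for Lyz1, Defa24 and Defa30.

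Counted per cell rather than per 10000 UMIs, these classes had values of like size in ileum and in jejunum, and values farther apart in duodenum. In ileum the 6 genes summed to 2.77 UMIs per cell in T cells, 2.78 in enterocytes, 3.64 in early enterocytes, 3.0 in tuft cells, 3.44 in EECs and 2.49 in B cells. In jejunum the same classes had 1.23, 1.64, 1.63, 1.35, 1.42 and 1.12, and in duodenum 0.286, 0.623, 0.790, 0.404, 0.491 and 0.487. Enterocytes, with larger UMI counts than T cells, lay below T cells per 10000 UMIs in each library (3.35 against 5.63 in ileum) and above them per cell in each library, so the direction of this difference depends on the scale.

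To compare classes, UMIs were summed per library and class, and the 3 sums of each class entered edgeR's quasi-likelihood test, with the library as a block and p-values adjusted by Benjamini-Hochberg over 12963 genes. As the 3 libraries are segments of the same pooled mice, these p-values measure how far class differences vary between segments, pooled over the classes in the fit. They hold no spread between mice. In enterocytes against T cells 0 of the 6 genes were called, while 32.5% of all genes tested were called higher and 30.6% lower. In tuft cells 0 were called (21.3% of all genes higher, 19.7% lower), and so in EECs (22.7% higher, 18.3% lower) and in early enterocytes (27.8% higher, 26.4% lower). At an unadjusted p under 0.05 edgeR also gave 0 of 6 in each of these comparisons, and DESeq2 called 0 of 6 in each.

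Of the fold changes in these classes the highest was that of Mmp7 in EECs, at 0.332 (0.217 to 0.487) per 10000 in ileum against 0.0598 (0.0409 to 0.0844) in T cells, with 3 UMIs in duodenum and 0 in jejunum. Of its 29 UMIs in the 171 EECs, 23 lay in 1 ileal cell, and without that cell, a choice made after seeing the data, the ileal level was 0.0395 (0.00816 to 0.116), below that of T cells. Its log2 fold change over the 3 libraries was 1.96 (edgeR adjusted p = 0.204).

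In the class of intestinal stem and proliferating cells (ISC/proliferating cells, 225 cells), which lie beside Paneth cells in the crypt, the levels of Lyz1, Defa24 and Defa30 were above those of T cells in each segment. Itln1 was below them in duodenum, at 0.138 against 0.212, where T cells held 4 UMIs of it. Defa24 stood at 1.39 (1.23 to 1.58) in duodenum, 19.9 (19.0 to 20.7) in jejunum and 5.74 (5.38 to 6.12) in ileum. Defa30 stood at 0.491 (0.394 to 0.604), 8.14 (7.60 to 8.71) and 1.52 (1.33 to 1.72). Both genes were called higher than in T cells, by a log2 fold change of 2.90 ± 0.98 (SE, n = 3 sums per class, edgeR adjusted p = 0.0190) and of 2.76 ± 1.13 (edgeR adjusted p = 0.0495). In this comparison 22.3% of all genes were called higher and 20.7% lower. Lyz1 (log2 fold change 2.24, edgeR adjusted p = 0.0796), Mmp7 (2.66, 0.0575), Itln1 (1.74, 0.149) and Ang4 (1.87, 0.0710) did not pass. Without the jejunum 0 of 6 were called, and without the duodenum 6 of 6, and the shares of all genes called in these 2 fits are not given here.

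The transcripts in this class sat in few cells. Of 225 cells, 25 held at least 10 UMIs of Defa24, and in 21 of these 25 at least 3 UMIs of Defa30 were found beside them. The 5 cells with most Defa24 held 59.9% of its UMIs in the class. For each UMI of Defa30 there were 2.76 of Defa24, beside 3.05 in Paneth cells and 3.14 in T cells. Cells with at least 1% of their UMIs from other Paneth markers numbered 6 here, 3 in goblet cells and 2 in T cells. With all such cells outside the Paneth class left out, an alternative chosen after seeing the data, 5 of 6 genes were called higher than in T cells. Their log2 fold changes were 2.80 for Mmp7, 2.30 for Defa30, 2.07 for Defa24, 1.37 for Lyz1 and 1.29 for Ang4. The share of all genes called in this alternative is not given here.

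Goblet cells, the mucus-producing cells of the epithelium (751 cells), gave another picture. All 6 genes were called higher than in T cells, where 24.5% of all genes were called higher and 25.9% lower, and all 6 higher than in enterocytes, where 17.9% were called higher and 21.9% lower. Against T cells the log2 fold change was 7.07 ± 1.18 for Defa24, 5.43 ± 1.16 for Lyz1, 5.19 ± 0.81 for Ang4, 5.11 ± 1.06 for Mmp7, 4.86 ± 1.04 for Itln1 and 4.61 ± 1.25 for Defa30 (SE, n = 3 sums per class, edgeR adjusted p from 6.93e-06 to 0.00321). Without the TMM scaling, the median of all genes in this comparison moved from -0.05 to -0.86 on the log2 scale, and 6 of 6 genes were still called higher.

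The goblet values in duodenum rested on 3 cells. Defa24 stood at 109 (107 to 110) per 10000 in the goblet cells of duodenum, 9.79 (9.35 to 10.3) in jejunum and 6.72 (6.50 to 6.95) in ileum. Of the 34914 UMIs of Defa24 in the class, 14792, 9432 and 1898 came from 3 duodenal cells, with 40969, 38209 and 6307 UMIs in all, which also held 2.59% to 5.39% of their UMIs from other Paneth markers (counted without Clps, a pancreatic cofactor gene). In the cell with 6307 UMIs the 6 genes made up 43.2% of all UMIs, beside a median of 41.5% in the Paneth class. With the 6 genes among the variable genes, these 3 cells fell in the Paneth class, which then held 7 duodenal cells in place of 4. Without the 3 cells Defa24 stood at 13.5 (13.1 to 13.9) per 10000 in duodenum, and Defa30 fell from 9.51 (9.14 to 9.88) to 0.0868 (0.0550 to 0.130). In the test without cells of 1% or more Paneth marker UMIs, 5 of the 6 genes were called higher than in T cells. Their log2 fold changes were 4.58 for Defa24, 4.58 for Mmp7, 4.40 for Ang4, 3.20 for Itln1 and 2.38 for Lyz1. Defa30 was not called (log2 fold change 0.05 ± 0.49, edgeR adjusted p = 0.977). The share of all genes called in this test is not given here, and in the main test 24.5% were higher. Without the duodenum, Defa30 (log2 fold change -0.19, edgeR adjusted p = 0.839) and Lyz1 (1.11, edgeR adjusted p = 0.126) were not called.

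For 2 of the genes the direction against T cells differed between segments, which was not tested. Lyz1 in goblet cells was above T cells in jejunum, at 0.996 (0.858 to 1.15) against 0.364, but below them in ileum, at 0.598 (0.533 to 0.670) against 1.08. Defa30 in ileal goblet cells stood at 0.360 (0.310 to 0.417), against 0.933 (0.853 to 1.02) in T cells. Counted per cell, ileal goblet cells held 0.746 UMIs of Lyz1 and 0.449 of Defa30, against 0.530 and 0.459 in T cells.

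Mmp7 and Ang4 in goblet cells were highest in ileum once the 3 cells were left out. Ang4 stood at 0.128 (0.0888 to 0.179) in duodenum, 0.458 (0.366 to 0.566) in jejunum and 1.24 (1.14 to 1.34) in ileum. Mmp7 stood at 0.0754 (0.0461 to 0.117), 0.156 (0.105 to 0.224) and 0.875 (0.796 to 0.961). Itln1 ran the other way, at 1.41 (1.27 to 1.56), 1.10 (0.958 to 1.27) and 0.749 (0.675 to 0.828). Each of these 3 orders has 1 library per segment and was not tested. The UMIs also sat in few cells, which the Poisson limits do not measure. With the 3 cells counted, the 38 of 751 goblet cells richest in each gene held 97.5% of Mmp7, 89.8% of Ang4 and 92.2% of Itln1.

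Many goblet cells with Defa24 held little or no Defa30. At least 10 UMIs of Defa24 were found in 76 of 751 goblet cells (10.1%, exact binomial interval 8.06 to 12.5), with 25 in duodenum, 16 in jejunum and 35 in ileum, and in 8 of 1230 T cells (0.650%, 0.281 to 1.28) and 18 of 10354 enterocytes (0.174%, 0.103 to 0.275). The goblet cells among them had a median of 22480 UMIs and the T cells one of 4188, so depth differs between these shares. In 7 of the 76 goblet cells at least 3 UMIs of Defa30 were found, and in 49 none, whereas 8 of the 8 T cells and 9 of the 18 enterocytes had at least 3. Thinned to 800 UMIs per cell, 24.2% (21.2 to 27.5) of goblet cells and 18.0% (15.9 to 20.3) of T cells had a UMI of Defa24.

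In 23 goblet cells with 117 to 617 UMIs of Defa24 and under 1% of UMIs from other Paneth markers, 6040 UMIs of Defa24 were counted beside 17 of Defa30 and 145 of Lyz1. These cells came from each segment (10, 7 and 6). Over the 748 goblet cells left after taking out the 3 cells, there were 33.4 UMIs of Defa24 for each of Defa30, against 3.05 in Paneth cells, 3.14 in T cells and 3.15 in enterocytes. The 23 cells held 6040 of the 8792 UMIs of Defa24 in the 748 cells, and the other 725, a set also chosen after seeing the data, had 11.2 of Defa24 for each of Defa30. The coding sequences of Defa24 and Defa30 differ at few positions, and whether these UMIs came from Defa24 itself or from a near-identical gene was not tested.

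**Figure D3:**
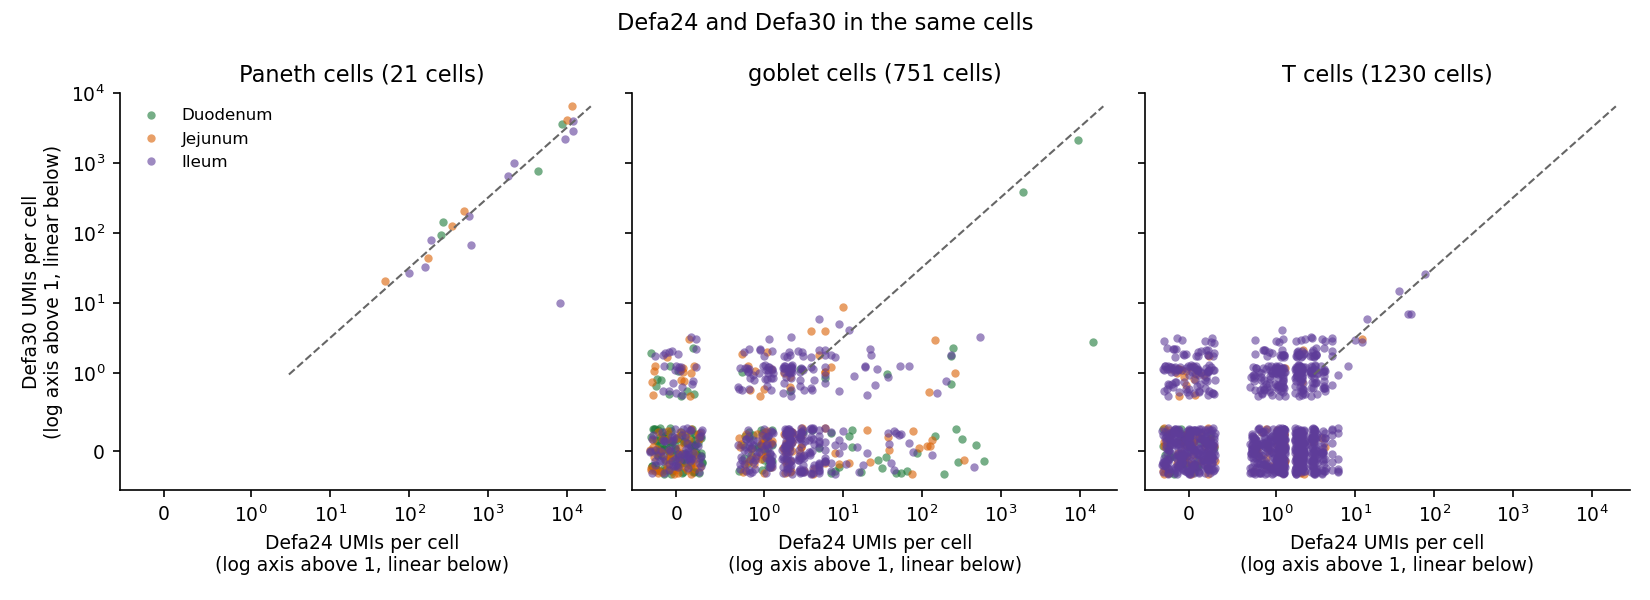
UMIs of Defa24 (x axis) and of Defa30 (y axis) per cell, on log axes that are linear below 1, for Paneth cells, goblet cells and T cells, coloured by segment; counts under 5 are spread slightly so that points can be seen. The dashed line marks the Paneth ratio of 3.05 to 1, and the ileal Paneth cell with 10 UMIs of Defa30 lies far below it, while goblet cells with 10 or more UMIs of Defa24 lie mostly below it.

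Among the goblet subclusters, subcluster 8.3 (94 cells), with Spink4 and Mptx1 among its leading genes, held 635 of the 669 goblet UMIs of Mmp7 and 635 of the 1028 of Ang4, counting the duodenal cells with 40969 and 38209 UMIs. Subclusters 8.1 (188 cells) and 8.2 (169 cells) had 56.6 and 49.3 UMIs of Defa24 for each of Defa30, and 8.2 held 297 UMIs of Ang4 beside 16 of Mmp7. The subclusters were made from these same cells, so these values are a description.

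Of the UMIs of the 6 genes in Paneth cells of all segments, 56.1% were Defa24, 18.4% Defa30, 14.4% Lyz1, 8.56% Itln1, 1.77% Ang4 and 0.743% Mmp7. In T cells the shares were 51.9%, 16.6%, 19.0%, 9.57%, 1.90% and 1.01%, and in enterocytes 52.2%, 16.6%, 16.5%, 12.3%, 1.64% and 0.703%. The 748 goblet cells had 72.6% Defa24, 2.17% Defa30, 7.10% Lyz1, 7.91% Itln1, 6.14% Ang4 and 4.06% Mmp7. In the 725 goblet cells without the 23 rich in Defa24, Defa24 took 50.3% and Defa30 4.50%. For Defa30 the exact binomial interval of the share in the 748 goblet cells (1.92 to 2.45) lay apart from those of Paneth cells (18.2 to 18.6), T cells (15.3 to 17.9) and enterocytes (16.1 to 17.1).

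**Figure D4:**
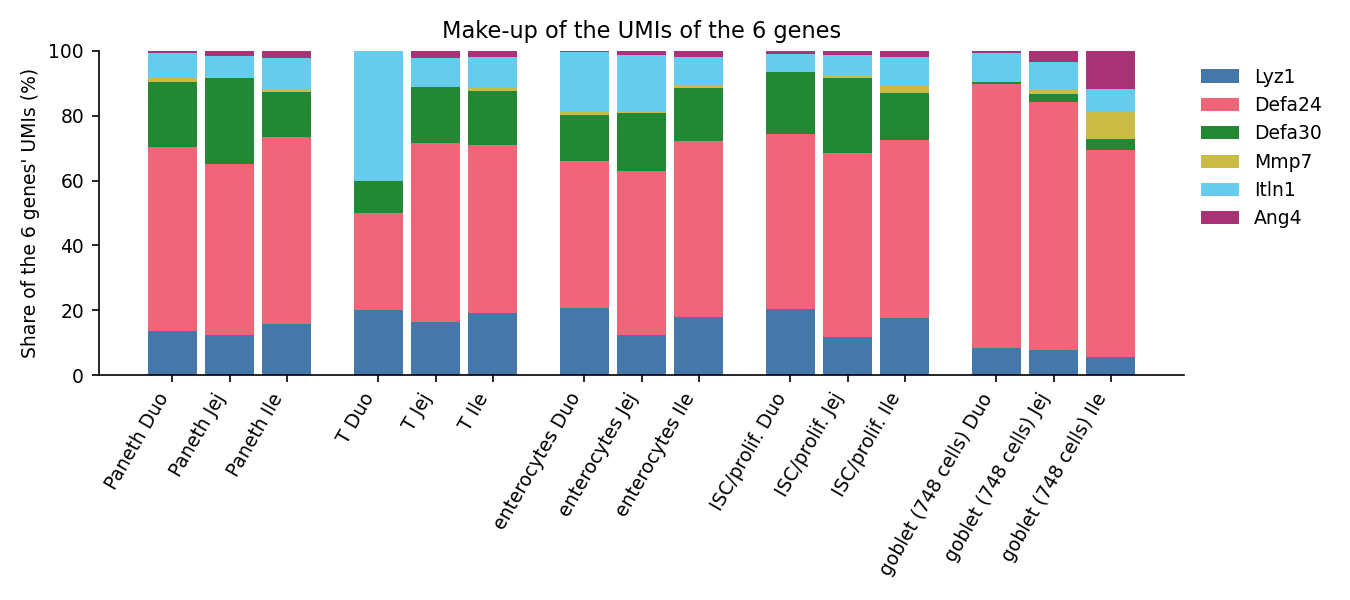
Share (%) of each gene among the UMIs of the 6 genes, by class and segment (Duo, Jej, Ile), stacked to 100%; T cells of duodenum hold 10 such UMIs. Defa30 (green) takes 13.8% or more in each Paneth bar and 3.42% in ileal goblet cells, where Ang4 and Mmp7 take 11.7% and 8.304%.

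Other genes of the Paneth program were read from 3 lists. Of 32 other alpha-defensin and related symbols 26 were in the gene table, 21 had a UMI in Paneth cells and each of these 21 lay above T cells, with 15 at 10 or more per 10000. Genes of this list, Defa21, Defa22, Gm14851 and AY761184 among them, served to name the class. Their excess over T cells follows in part from that choice. The list's median was 16.8 per 10000 in Paneth cells and 0.0163 in T cells, where the median over all 31053 genes was 0 in both. Defa21 stood at 552 per 10000, Defa22 at 493, Gm14851 at 447 and AY761184 at 400. Against T cells 12 of the list were tested. AY761184 and Gm14851, 2 of the 12, were called higher in goblet cells, where 24.5% of all genes were. Both are among the Paneth markers, and the goblet sums counted the 3 duodenal cells rich in those markers. No result of this list without these 3 cells is given here. In ISC/proliferating cells Defa21, Defa22 and Defa23, 3 of the 12, were called higher, beside 22.3% of all genes. In early enterocytes 3 of the 12, Defa21, Defa22 and Gm15293, were called lower, where 26.4% of all genes were.

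Of 14 other secreted genes, 13 were in the table and 9 had UMIs in Paneth cells, led by Mptx2 (91.0 per 10000), a pentraxin-like secreted protein, Clps (28.6), Pnliprp2 (11.4), a lipase relative, and Pigr (2.80), the receptor that carries IgA across the epithelium. Ang2, Ang5, Ang6 and Camp had 0 UMIs in the class, and Lyz2, the close copy of Lyz1, had 6 beside 21315 of Lyz1. Mptx2 and Clps were among the markers that named the class, so their lead follows in part from that choice. Pigr was higher in enterocytes (10.7) than in Paneth cells. In goblet cells 6 of 9 genes tested were called higher than in T cells, beside 24.5% of all genes, and in EECs 5 of 9, beside 22.7%.

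Mptx2 varied along the gut within the Paneth class. It had 0 UMIs in the 4 duodenal cells, which allows up to 0.393 per 10000, and stood at 58.4 in jejunum and 136 in ileum, where 1 cell held 2082 of the 2813 UMIs. This order does not extend to larger barcodes, since the single duodenal one over 50000 UMIs with Paneth markers held 2656 UMIs of Mptx2 (223 per 10000). Defa21 and Defa22 had the same order, at 7.21 and 16.9 in duodenum, 276 and 105 in jejunum, and 853 and 808 in ileum, whereas AY761184 was highest in jejunum (855, against 370 in duodenum and 248 in ileum). These orders have 1 library per segment and were not tested.

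Of 14 regulators of secretory fate and granules, 13 had a UMI in Paneth cells and none reached 10 per 10000. Cd24a, a surface protein of Paneth cells, stood at 7.29, Sox9, a transcription factor that Paneth cells need, at 1.88, Xbp1, a regulator of the secretory apparatus, at 1.35, and Wnt3, a signal to the stem cells, at 0.701. Wnt3 had 25 UMIs in 7 of 21 Paneth cells and 9 UMIs in 10354 enterocytes. These genes were not particular to Paneth cells. Against T cells the log2 fold change of Cd24a was 10.04 in tuft cells and 6.4 in EECs. That of Sox9 was 8.66 in tuft cells and that of Wnt3 8.25 in EECs, and Xbp1 stood at 3.22 per 10000 in goblet cells. In goblet cells 9 of 13 regulators tested were called higher than in T cells, where 24.5% of all genes were. Gfi1 (0.149 per 10000 against 0.793) and Kcnn4 (0.0332 against 0.565) were called lower, beside 25.9% of all genes. Against enterocytes 10 of 13 were called higher (17.9% of all genes), Gfi1 and Kcnn4 among them, with log2 fold changes of 6.48 and 3.41.

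The genes whose pattern over 45 sums of class and library was most like that of the 6 were Gm14851 (mean Pearson r = 0.921), Defa29 (0.914), Defa36 (0.911), AY761184 (0.905) and Defa26 (0.886), out of 14077 genes. The sums share libraries and free RNA, so the values are a description with no test. Among the 6, r ranged from 0.784 for Lyz1 with Ang4 to 0.965 for Mmp7 with Ang4, and Lyz1 had the lowest values with the others.

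Lyz1 was also found without the other genes. In an unnamed cluster of 60 cells led by Gp2, Dcn, Ccl20 and Lyz2 it stood at 14.7 per 10000, with 0.933 of Defa24, and in another of 74 cells at 3.66. In these 2 clusters 8 cells held 11 to 336 UMIs of Lyz1, with at most 8 of Defa24 and with 31 to 1279 of Lyz2, and 5 of the 8 had 97 to 282 UMIs of C1qa, a complement gene of macrophages. Lyz1 and Lyz2 share a part of their 3′ ends, and whether these Lyz1 UMIs are reads of Lyz2 was not tested. In the class named macrophages/monocytes, with 26 cells, 8 UMIs of Lyz1 were found.

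The number of Paneth cells depended on the upper limit of UMIs. Of all 27235 barcodes, 46 held at least 5% of their UMIs from the 13 other Paneth markers, and 19 of these passed the study's filters. Of the rest, 14 had over 50000 UMIs, 8 had under 800, 4 had over 40% mitochondrial UMIs and 1 had under 200 genes. These 14 were 9.03% of the 155 barcodes over 50000 UMIs, against 0.114% of the cells that passed. Of the 897715 UMIs of the 6 genes in the dataset, 626896 (69.8%) lay in these 14 barcodes and 16.5% in the 21 cells of the Paneth class. One of the 19, a jejunal cell with 11146 UMIs, had none of the 6 genes and reached 5% through Clps. One barcode sequence was found in duodenum, with 119265 UMIs, and in jejunum, with 560, and both held Paneth markers, but neither passed the filters.

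In the 14 barcodes, 1 from duodenum, 5 from jejunum and 8 from ileum, the levels were pooled over segments and set beside those of the Paneth class. Lyz1 stood at 556 per 10000 against 597, Defa24 at 2257 against 2327, Defa30 at 940 against 764, Mmp7 at 25.6 against 30.8, Itln1 at 358 against 355 and Ang4 at 79.6 against 73.5. By segment they lay farther apart. In duodenum Ang4 stood at 123 against 18.5, Defa24 at 2917 against 1754 and Defa30 at 1114 against 618, and in jejunum Lyz1 stood at 470 against 710 and Ang4 at 58.9 against 93.3. Their share of UMIs from the 6 genes ranged from 20.9% to 56.9%. Defa30 was low beside Defa24 in 1 of them too, a jejunal barcode with 62434 UMIs that held 9870 of Defa24, 71 of Defa30 and 9 of Ang4, and Ang4 was at 1 and 4 UMIs in 2 ileal ones with 91523 and 52693 UMIs. Whether these barcodes hold 1 cell or several was not tested.

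**Figure D5:**
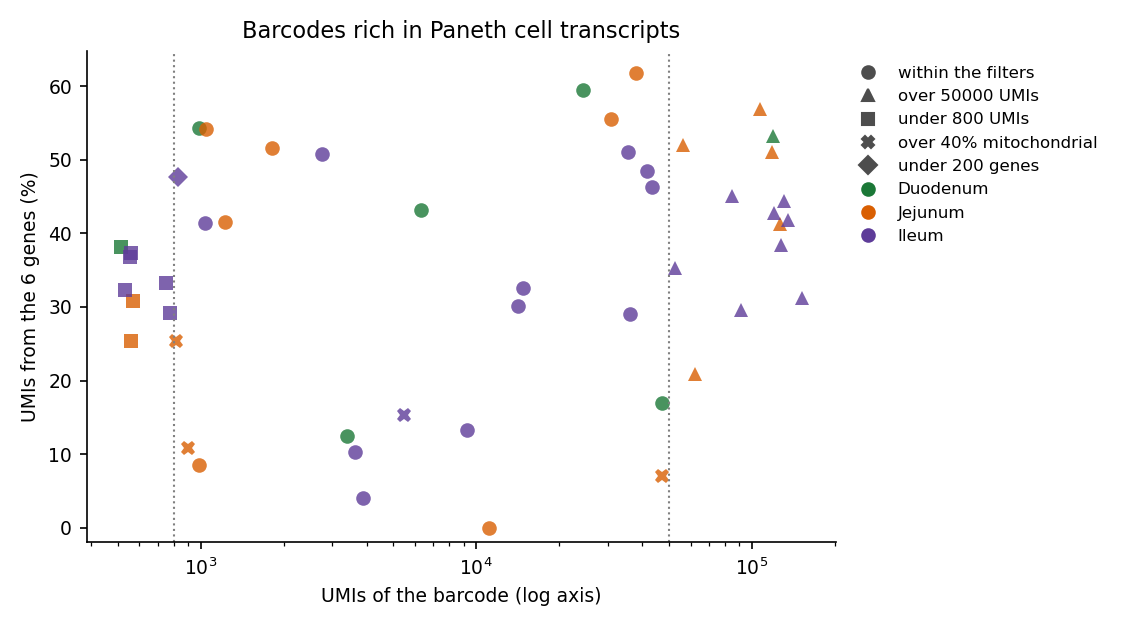
UMIs of a barcode (x axis, log) and share of them from the 6 genes (y axis, %), for the 46 barcodes with at least 5% of UMIs from other Paneth markers and the remaining Paneth cells, by segment (colour) and by the filter that a barcode failed (shape); dotted lines mark 800 and 50000 UMIs. The 14 barcodes over 50000 UMIs hold 20.9% to 56.9% of their UMIs from the 6 genes, within the range of the Paneth cells that passed.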

How the data were processed

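Libraries were made with the 10x Genomics 3′ v3 chemistry, and the authors deposited raw UMI counts per gene and barcode, not normalised, from Cell Ranger 3.0.2 on GRCm38 (mm10), per the submitters' notes. The study's limits were applied: UMIs between 800 and 50000, genes between 200 and 6000, and a mitochondrial share of up to 40%. Cells were integrated and clustered in Seurat 5.3.0 with 2000 variable genes without the 6 members, 30 components and resolution 0.8, and mixed clusters were split at resolution 0.5. Classes were named from marker lists and so are rebuilt, not the authors' own. Levels are UMIs per 10000, with exact intervals from SciPy 1.17.1. Class sums of at least 10 cells in each library were tested with edgeR 4.0.16 (filterByExpr, TMM, library as a block, all named classes other than Paneth in 1 fit, Benjamini-Hochberg, threshold 0.05), and DESeq2 1.42.0 was an alternative. Counts for goblet against T cells (10247 genes) were simulated with the spread between sums (dispersion) set at 0.1. Of 68 genes changed by 1 on the log2 scale 13.2% were recovered, with 93.9% of 66 changed by 2 and 100% of 66 changed by 4. There were 5 false among 142 calls. The dispersion was a setting not taken from the 6 genes, so these rates need not hold for them. The standard errors of the 6 genes in this comparison, given above, are large beside a change of 1 or 2. Such a change in them could be missed more often than these rates say. The members and lists were chosen with earlier results of these data known. The text names the 6 members, the 4 genes of each list with the highest Paneth level, and the 5 genes most like the members by mean correlation of log2 levels. Gfi1, Kcnn4, Lyz2, the genes at 0 and single cells were named after their values were seen. Sequences come from GENCODE M21 transcripts and RefSeq.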

Additional observations from a re-analysis of the deposited data

Results flagged for a closer look

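Barcodes over 50000 UMIs enter no comparison, and 14 of them held at least 5% of their UMIs from other Paneth markers. In an unnamed cluster of 406 cells, with a median of 1204 UMIs and outside every comparison, Defa24 stood at 7.38 per 10000, above the 2.67 of T cells, while per cell it was 0.752 times that of T cells, so the direction depends on the scale. Lyz1 in goblet cells was above T cells in duodenum (22.2 per 10000) and jejunum (0.996) and below them in ileum (0.598), and Defa30 was above T cells in duodenum (9.51) and below them in ileum (0.360). These differences between segments were not tested.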

How the results depend on the processing

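No paired analysis was possible because each segment has 1 library and replicate numbers join no samples across segments. Classes were compared within libraries through a library block. The counts below come without the share of all genes called, which is given above for the main test only. For ISC/proliferating cells against T cells, where 2 of 6 genes were called, the count was 0 without the library block, 1 without TMM, with sums of at least 20 cells, without the T cells richest in enterocyte markers or without Scrublet doublets, 4 with DESeq2, 5 with only the classes compared in the fit or without cells of 1% or more Paneth marker UMIs, 6 without the filter on low genes or with the members among the variable genes, and 0 to 6 when a library was left out. In early enterocytes it rose from 0 to 4 without the filter, 5 with only the classes compared, 1 with the members among the variable genes, 2 without the marker-rich cells, and 0 to 3 with a library left out, each call being lower than T cells. In EECs it was 1 without the filter (Mmp7, higher) and 1 with only the classes compared (Defa30, lower). Defa30 in goblet cells turned to a log2 fold change of -0.0047 against T cells with the members among the variable genes and ranged from -0.19 (without the duodenum) to 6.12 with a library left out. Against enterocytes it turned to -0.097 with the members among the variable genes and -0.045 without the marker-rich cells, and ranged from -0.21 (without the duodenum) to 6.04. The 6 genes summed in Paneth cells, per 10000 UMIs, moved in duodenum from 3093 to 3179 at a limit of 20% mitochondrial UMIs, 3734 with the members among the variable genes, 3187 without integration, 5611 and 5374 when cells were chosen by 5% of marker UMIs among kept and among all barcodes, and 3583 as a mean over cells. In jejunum they moved from 5779 to 5845 without integration, 5070 and 4341 by marker share, and 4554 as a mean over cells, and in ileum from 3954 to 4211 at the stricter limit, 4022 and 3887 by marker share, and 3248 as a mean over cells. By marker share, in kept cells and in all barcodes, duodenum thus lay above jejunum, but this rests on single barcodes. The jejunal sets held a cell of 11146 UMIs with none of the 6 genes. The other 5 kept jejunal cells, the same as the class without integration, stood at 5845, above the 5611 of duodenum. Among all barcodes, 1 duodenal barcode held 119265 of the 151545 UMIs. Against T cells the 6 genes summed were higher in 0 of 3 libraries per 10000 UMIs for enterocytes, early enterocytes, tuft cells and EECs, and in 3 per cell, with 1 for tuft cells and 1 for EECs after thinning to 800 UMIs and 1 for tuft cells against B cells. The cause of these changes was not tested. The duodenal reference rests on 10 UMIs of the 6 genes in 35 T cells.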
